A study of Mus musculus with 123 samples.

Results

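The aminoacyl-tRNA synthetases of the cytosol and the genes of the amino acid response driven by ATF4 were described in the liver of Collaborative Cross (CC) mice. The set was given as a list of 38 genes, of which 20 code for synthetases or their subunits and the others for transcription factors, feedback genes, enzymes of serine, asparagine and one-carbon metabolism and amino acid transporters. A gene was found by its symbol in the annotation of the array, where synthetases can carry a final 1, and was represented by its transcript cluster with the highest mean. In this way 37 of the 38 genes had a cluster, and *Dars* was not analysed here. Of the 37, 31 passed the filter on low expression (19 synthetases and 12 others) among 10943 genes tested in all. The list did not use any measured value, although it was drawn up with earlier results of these mice known.

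Aminoacyl-tRNA synthetases each attach an amino acid to its tRNA, which makes them necessary for translation in every cell. When amino acids run short, uncharged tRNA activates the kinase GCN2, which phosphorylates eIF2 alpha, slows general translation and favours translation of the transcription factor ATF4. ATF4 then binds composite C/EBP-ATF response elements of genes for synthetases, amino acid synthesis and amino acid uptake, and of genes such as *Trib3* and *Sesn2* that act back on growth signalling. The same branch is reached by other eIF2 alpha kinases in stress of the endoplasmic reticulum, and the liver, as the first organ to receive absorbed amino acids, is one of its main sites of study.

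The mice were females of 22 CC strains, recombinant inbred lines that each carry genome segments of several founder strains. After 2 weeks of acclimation on a synthetic diet they received a high-protein (HP) or a high-fat high-sucrose (HS) diet for 8 weeks and were fasted for 4 h before the liver was taken. There were 63 HP mice and 60 HS mice, with 4 to 6 mice of each strain and 2 or 3 in each of the 44 strain and diet groups. No mouse received a standard chow, so a difference is always HP relative to HS. Values are log2 intensities of whole liver RNA, 1 array per mouse, so that fewer cells of a type and less RNA per cell cannot be told apart.

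Array medians ran from 2.97 to 3.16 and Pearson's r between the arrays of any pair of mice, across all clusters, from 0.932 to 0.977. Hepatocyte markers were high in every mouse (mean of 8 genes 10.8 to 11.6 in HP mice and 10.7 to 11.6 in HS mice). The library labelled as an HS mouse of CC059/TauUnc was nearer to the mean of CC035/Unc (r = 0.738, across genes with the mean of each gene taken out) than to that of the other mice of its own strain (r = 0.127). A mouse labelled CC071/TauUnc on HP had an *Xist* value of 2.72, although all mice are labelled female. In 3 mice (1 HP of CC019/TauUnc, 1 HS of CC037/TauUnc and 1 HS of CC027/GeniUnc) the mean of 4 pancreatic acinar markers was 9.63, 6.98 and 7.25, against at most 4.37 in the rest. Counts of diet calls without these 5 mice are given beside the main ones. Without them 30 of the 31 genes were called by strain and 0 by the interaction, the same counts as with all mice.

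Promoters of RefSeq genes (GRCm38.p6, 250 bases before to 50 after the start of a gene) were found for 30 of the 38 genes. They were searched on both strands for TGATGNAAN, the letters of the C/EBP-ATF response element. At least 1 match lay in the promoters of 9 of the 30 genes, or 28.1% of their 32 promoters, against 3.95% of all 32851 promoters and 4.50% of all 27025 genes of the table. Of the 8666 tested genes with a promoter 2.88% held a match. Because the list was drawn up around the ATF4 response, a share above that of all genes is no independent result. By kind, the promoters of 5 of 13 synthetases and of 4 of 17 other genes held a match. A match is a run of letters and not a measured binding site. The matches of 8 of these genes, with 10 bases on each side and the motif in capitals, are shown on the strand that reads TGATG, to give their place and the bases around them. The letters of the motif other than N are the same by the search itself.
Gars, 31 bases before the start: gcccggtgcaTGATGAAATagcgcagcca
Iars, 6 bases after the start: cgtctggaggTGATGCAATactgacagtg
Tars, 16 bases before the start: gctaaccagcTGATGCAACgggactcctg
Yars, 3 bases after the start: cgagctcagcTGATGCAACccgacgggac
Trib3, 13 bases after the start: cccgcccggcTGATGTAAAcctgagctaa
Chac1, 194 bases before the start: ctggcaggagTGATGCAACggcagggaag
Asns, 23 bases before the start: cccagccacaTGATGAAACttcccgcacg
Slc7a11, 66 bases before the start: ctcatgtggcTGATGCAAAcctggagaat
Slc7a11, 48 bases before the start: ggctgcatgaTGATGCAAAttctccaggt

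The first comparison asked which of these genes differed between the diets. Synthetase transcripts differed in 1 direction where they passed the test: 5 of 19 were lower in HP mice (*Aars*, *Cars*, *Lars*, *Mars* and *Wars*) and 0 were higher. Among the 12 other tested genes, *Trib3* was higher in HP mice, *Sesn2* was lower and 10 did not pass. The test was limma with diet as the only term, Benjamini-Hochberg adjustment over all 10943 genes and a threshold of 0.05. Over all genes it called 6.28% higher on HP and 5.14% lower, so the 26.3% of synthetases called lower lay above that background, whereas 1 higher and 1 lower of 12 other genes lay near it. The difference was below 0 for 16 of 19 synthetases (84.2%), with a median of −0.06, against 53.5% and a median of −0.01 over all tested genes. *Atf4* itself did not pass the test (difference 0.02, 95% interval −0.05 to 0.10).

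With strain as a block in the same test, which removes the spread between strains, 11.5% of all genes were called higher on HP and 11.7% lower. In that fit 8 of 19 synthetases were lower (*Farsb*, *Gars* and *Tars* in addition) and 1, *Eprs*, was higher (adjusted p = 0.04997, just under the threshold), and *Atf5* joined *Sesn2* among the lower genes. Without the 5 mice that stood apart, 6 genes were called in place of 7. *Wars* was the call lost (adjusted p = 0.0527), and with the block 10 genes were called in place of 12.

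**Figure D1:**
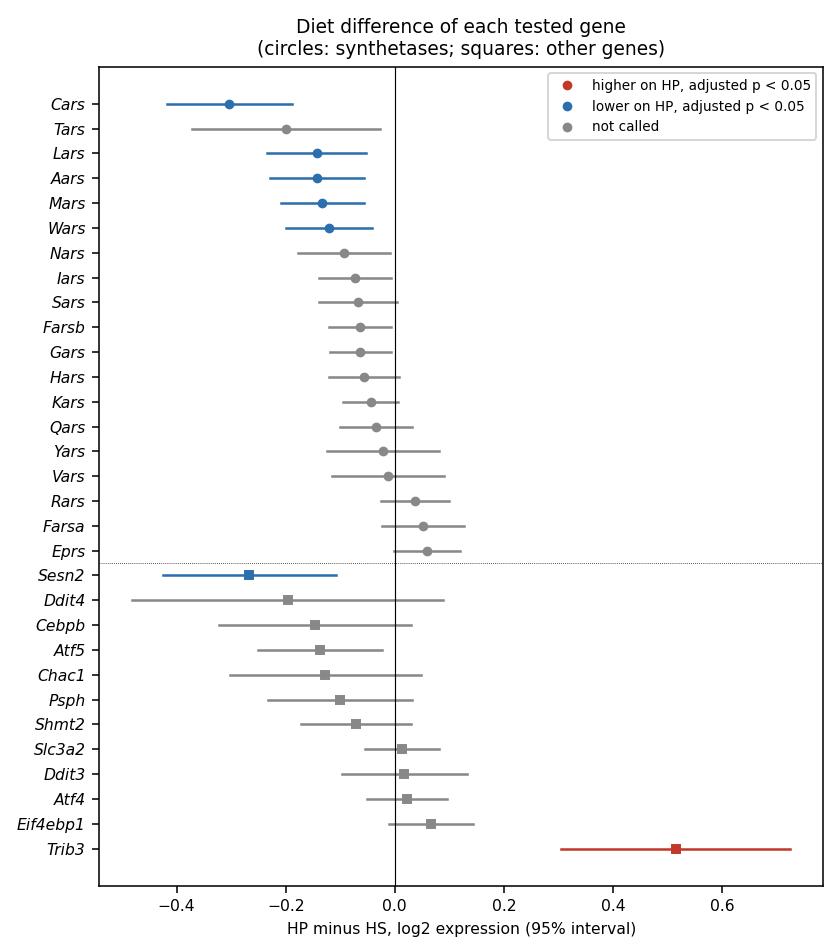
Difference HP minus HS (log2) of the 31 tested genes with its 95% interval from limma, synthetases as circles above the dotted line and other genes as squares below it. Red marks the 1 gene called higher on HP, blue the 6 called lower and grey the 24 not called. All 5 called synthetases lie left of 0.

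*Trib3*, a pseudokinase that ATF4 induces and that in turn restrains ATF4, had the largest difference of the set. Its log2 expression in HP mice was 3.87 at the lowest, 4.95 at the median and 7.03 at the highest, against 3.07, 4.57 and 5.39 in HS mice. The ranges overlapped, and 46 of 63 HP mice lay above the HS median. The means were 4.99 ± 0.61 (SD, n = 63) on HP and 4.47 ± 0.58 (SD, n = 60) on HS, a 1.43-fold higher level (difference 0.52, SE 0.106, limma adjusted p = 0.000201). HP means were higher in 21 of 22 strains, from −0.04 in CC037/TauUnc to 1.38 in CC008/GeniUnc. The promoter of *Trib3* (chr2:152344011-152344310, minus strand, GRCm38.p6) is shown because this gene had the largest difference and holds a match just past its start. Of the 4 genes called by diet that had a promoter, 2 held a match, 1 higher and 1 lower in HP mice, against 4.50% of all genes with a promoter. No promoter was found for the called genes *Cars*, *Lars* and *Wars*, so these were not searched. Capitals mark the motif, here on the opposite strand.
Trib3 promoter: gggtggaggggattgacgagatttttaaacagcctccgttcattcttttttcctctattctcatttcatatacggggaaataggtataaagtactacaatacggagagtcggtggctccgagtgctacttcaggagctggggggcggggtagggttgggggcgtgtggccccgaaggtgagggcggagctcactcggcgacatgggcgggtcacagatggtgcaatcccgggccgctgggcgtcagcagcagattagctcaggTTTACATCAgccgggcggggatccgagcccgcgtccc

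*Cars*, the cysteinyl-tRNA synthetase, differed most among the synthetases. It ran from 5.95 through a median of 6.67 to 7.70 in HP mice, against 6.34, 7.04 and 7.88 in HS mice. The ranges overlapped, yet 54 of 63 HP mice lay below the HS median. Means were 6.69 ± 0.32 (SD, n = 63) on HP and 6.99 ± 0.32 (SD, n = 60) on HS, a difference of −0.30 (SE 0.0580, limma adjusted p = 5.72e-05). The HP mean was lower in 20 of 22 strains. Leaving out any 1 strain gave differences between −0.32 and −0.28.

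*Aars*, the alanyl-tRNA synthetase, ran from 6.28 through a median of 6.76 to 7.51 in HP mice, against 6.54, 6.96 and 7.73 in HS mice. HP mice were lower at all 3 points, and 47 of 63 lay below the HS median, although the ranges overlapped widely. The difference was −0.14 (SE 0.0437, adjusted p = 0.0191), lower in 18 of 22 strains. The annotation gives its cluster also to *Exosc6*, a gene of the RNA exosome, so the value may hold transcripts of both.

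*Mars*, the methionyl-tRNA synthetase, had a lowest, median and highest value of 6.44, 7.01 and 7.61 in HP mice, against 6.72, 7.15 and 7.69 in HS mice (difference −0.13, SE 0.0387, adjusted p = 0.0129). *Lars*, for leucine, gave 5.58, 6.45 and 7.11 in HP mice, against 5.88, 6.60 and 7.10 in HS mice (difference −0.14, SE 0.0460, adjusted p = 0.0260). *Wars*, for tryptophan, gave 5.54, 6.13 and 6.72 in HP mice, against 5.69, 6.24 and 6.58 in HS mice (difference −0.12, SE 0.0399, adjusted p = 0.0309). In each of the 3 the medians were shifted and the ranges overlapped, and the HP mean was lower in 17, 19 and 17 of 22 strains. *Lars* and *Wars* did not pass when no filter on low expression was used (adjusted p = 0.0516 and 0.0619). *Lars* also missed the threshold without CC037/TauUnc (adjusted p = 0.0566), and *Wars* without CC012/GeniUnc, CC045/GeniUnc or CC071/TauUnc (adjusted p = 0.0516, 0.0793 and 0.0600).

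Of the 14 synthetases that did not pass, *Tars*, for threonine, had the largest difference. It ran from 7.69 through a median of 8.99 to 9.72 in HP mice, against 7.90, 9.18 and 9.91 in HS mice. Its difference was −0.20 with a wide interval of −0.37 to −0.03 (adjusted p = 0.1254). With strain as a block it passed (adjusted p = 0.00626), and with the clock score of circadian genes as a covariate it differed by −0.05 (adjusted p = 0.696). *Iars* passed only without CC024/GeniUnc (adjusted p = 0.0444). *Nars*, *Iars*, *Sars*, *Farsb*, *Gars*, *Hars*, *Kars* and *Qars* had differences between −0.09 and −0.03, and *Vars* and *Yars* of −0.01 and −0.02. The 3 above 0 were *Eprs* (0.06), the bifunctional enzyme for glutamate and proline, *Farsa* (0.05) and *Rars* (0.04). *Farsa* and *Farsb* are the 2 subunits of the enzyme for phenylalanine. Their differences of 0.05 (interval −0.02 to 0.13) and −0.06 (interval −0.12 to −0.01) had opposite signs, and neither passed the test.

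*Sesn2*, a stress-induced leucine sensor that restrains mTORC1, was the other feedback gene that passed. It ran from 3.49 through a median of 5.26 to 5.93 in HP mice, against 4.33, 5.41 and 6.54 in HS mice. The groups overlapped, with 41 of 63 HP mice below the HS median. The difference was −0.27 (SE 0.0800, adjusted p = 0.0163), lower in 19 of 22 strains. *Trib3* and *Sesn2*, both known ATF4 targets, thus differed in opposite directions between the same mice.

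The transcription factors did not pass. *Atf4* had a lowest, median and highest value of 6.70, 7.23 and 7.88 in HP mice, against 6.67, 7.21 and 7.59 in HS mice, so the medians were close and the highest HP mouse lay above every HS mouse. ATF4 is controlled mainly through translation of its mRNA, which arrays do not measure. *Atf5*, a related factor controlled in the same way, differed by −0.14 (interval −0.25 to −0.02, adjusted p = 0.110), *Cebpb*, a partner of ATF4 on the composite element, by −0.15 (interval −0.32 to 0.03), and *Ddit3*, which codes for CHOP, by 0.02 (interval −0.10 to 0.13).

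Among the other feedback genes, *Ddit4*, an inhibitor of mTORC1, differed by −0.20 with an interval of −0.48 to 0.09. *Eif4ebp1*, the repressor of cap-dependent translation, differed by 0.07 (interval −0.01 to 0.14), and *Chac1*, which degrades glutathione, by −0.13 (interval −0.30 to 0.05). *Psph* and *Shmt2*, of serine and one-carbon synthesis, differed by −0.10 and −0.07, and *Slc3a2*, the heavy chain of several amino acid transporters, by 0.01. None of these 6 passed the test.

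The 6 genes that did not pass the filter were *Asns*, *Phgdh*, *Psat1*, *Mthfd2*, *Slc7a11* and *Stc2*. They include *Asns*, which makes asparagine, and *Phgdh* and *Psat1* of serine synthesis, whereas *Psph*, the last enzyme of that pathway, passed. The filter kept a cluster with a median above 4.08, or with values above it in more than 1 of 8 mice. *Chac1* lay just inside it (mean 4.09, above the limit in 53.7% of mice) and *Asns* just outside (mean 3.50, above it in 10.6%). *Asns* ran from 2.47 through a median of 3.34 to 4.90 in HP mice, against 2.87, 3.35 and 5.69 in HS mice. At these intensities a difference was hard to detect: the 6 genes differed between the diet means by −0.13 (*Phgdh*) to 0.10 (*Stc2*), and 0 of them was called when all 22181 named genes were tested.

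**Figure D2:**
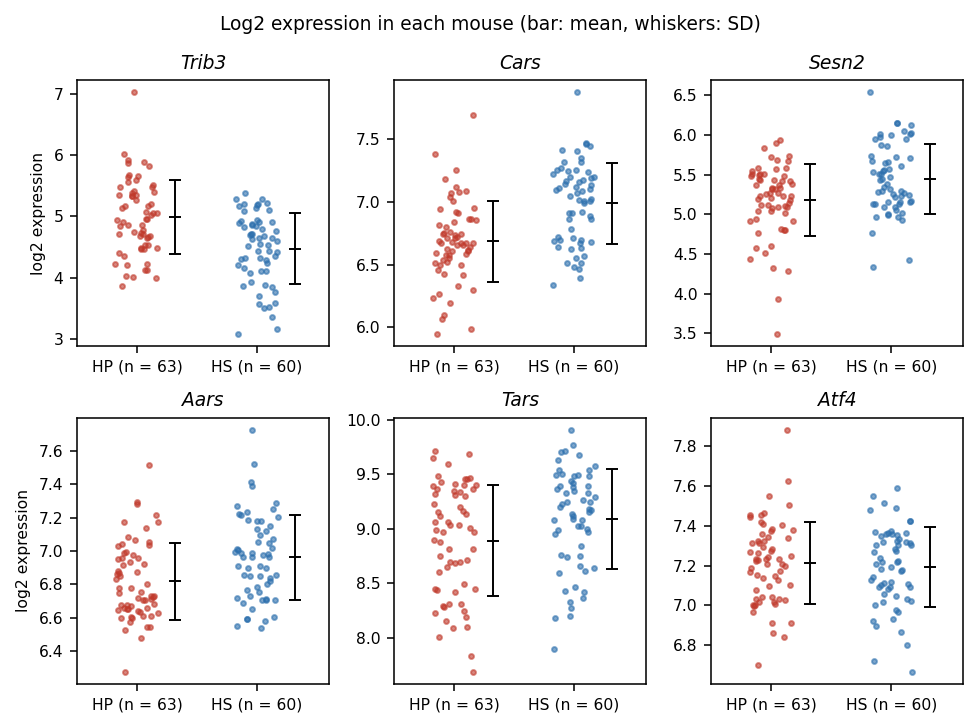
Log2 expression of 6 genes in each of 63 HP mice (red) and 60 HS mice (blue), with the mean as a bar and the SD as whiskers. *Trib3* is shifted up and *Cars*, *Sesn2* and *Aars* are shifted down in HP mice within overlapping ranges, *Tars* is shifted down without passing the test, and the means of *Atf4* are close, with 1 HP mouse above all others.

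Other measures moved with diet. A clock score, the mean of standardized values of *Dbp*, *Nr1d1*, *Nr1d2*, *Per3*, *Tef* and *Ciart* less that of *Arntl*, *Npas2* and *Clock*, was 0.39 ± 1.81 (SD, n = 63) in HP mice and −0.41 ± 1.69 (SD, n = 60) in HS mice. Of its 9 genes, only *Nr1d2* passed the diet test (difference 0.23, adjusted p = 0.0233). With strain as a block 3 of the 6 first named were higher in HP mice (*Nr1d2*, *Tef* and *Ciart*) and 2 of the other 3 were lower (*Arntl* and *Npas2*). The shares over all genes in that fit were 11.5% higher and 11.7% lower. The hour at which each liver was taken is not in the labels, and the part of the clock in the diet differences was not tested. With the score as a covariate *Trib3* (0.41, adjusted p = 0.00295), *Cars* (−0.23, adjusted p = 0.000996) and *Sesn2* (−0.27, adjusted p = 0.0203) still passed. *Aars*, *Lars*, *Mars* and *Wars* did not (adjusted p = 0.111, 0.107, 0.0819 and 0.141), and *Cebpb* was then called lower (−0.25, adjusted p = 0.0376). With both strain as a block and the score as a covariate, *Aars*, *Lars* and *Mars* passed again (adjusted p = 0.00427, 0.0156 and 0.0196) and *Wars* did not (adjusted p = 0.0507).

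Kupffer cell markers were lower in HP mice for 3 of 11 genes (*Clec4f*, *Cd68* and *C1qb*, by −0.26, −0.24 and −0.28), and for 10 of 11 with strain as a block. Of all tested genes 5.14% were called lower, and 11.7% with the block. The mean level of the 11 ran from 5.66 to 7.99 in HP mice and from 6.51 to 8.55 in HS mice, and the median difference was −0.24. Of 8 stellate cell markers 2 were lower in HP mice (*Lrat* by −0.25 and *Reln* by −0.16), and the mean of the 8 ran from 6.19 to 7.38 in HP mice and from 6.21 to 7.43 in HS mice. None of 7 sinusoidal endothelial markers passed. Their part in the lower synthetase values was not tested. Of 8 hepatocyte markers, *Cps1*, which starts the urea cycle, was higher in HP mice (0.20) and *G6pc*, of glucose release, lower (−0.39), and *Alb* differed by 0.00 (adjusted p = 0.976).

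Related gene lists, chosen from general knowledge of the pathway but with earlier results of these data known, gave the surrounding picture. Of 16 mitochondrial synthetases 1 was called, *Fars2*, higher in HP mice (difference 0.08, adjusted p = 0.0211), with a median of −0.01 over the list, and 0 were lower. Of 17 other known ATF4 targets 2 were higher and 0 lower. Over all tested genes 6.28% were called higher on HP and 5.14% lower, and the lists were not tested as sets. *Tars2* and *Nars2* stand both in this list and in that of the mitochondrial synthetases, and neither was called. *Cth*, which makes cysteine from cystathionine, averaged 10.7 ± 0.40 (SD, n = 63) on HP and 10.3 ± 0.42 (SD, n = 60) on HS (difference 0.38, adjusted p = 5.76e-05). *Vldlr*, the receptor for very low density lipoprotein, averaged 5.57 ± 0.999 (SD, n = 63) on HP and 4.67 ± 1.03 (SD, n = 60) on HS (difference 0.90, adjusted p = 0.000142). *Fgf21*, the hepatokine, differed by −0.33 without passing (adjusted p = 0.0667), and passed with strain as a block (adjusted p = 0.0275). With the block *Gpt2* and *Mthfd1l* were higher too and *Slc1a4*, a neutral amino acid transporter, was lower. Of 15 eIF2 alpha kinases, phosphatases and sensors 0 passed in limma with diet alone. With the block *Ppp1r15b* was higher, and *Gcn1*, *Eif2ak2* and *Eif2s2* were lower. Over all tested genes the fit with the block called 11.5% higher and 11.7% lower. No call was made for the 2 scaffold proteins of the multisynthetase complex, *Aimp1* and *Eef1e1*.

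The second comparison asked how the genes differed among the 22 strains. The strain F test of limma called 30 of the 31 genes (96.8%), against 81.3% of all tested genes. *Vars* was the exception (F = 1.64, adjusted p = 0.0638). It passed when arrays were centred on their medians (adjusted p = 0.0213), and without CC002/Unc, CC006/TauUnc or CC024/GeniUnc (adjusted p = 0.0329, 0.0393 and 0.0385). The median F was 4.24 for synthetases and 3.10 for both the other genes of the set and all tested genes. The strain means of a synthetase spanned 0.38 to 1.31.

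*Yars*, the tyrosyl-tRNA synthetase, had the largest F (10.1, adjusted p = 6.82e-16), and 1 strain carried much of it. CC012/GeniUnc averaged 5.29 ± 0.32 (SD, n = 5), the next lowest strain 5.99 and the highest, CC004/TauUnc, 6.61 ± 0.205 (SD, n = 6). Without CC012/GeniUnc the F was 4.61. *Tars* followed (F = 8.20, adjusted p = 3.00e-13) with a mean of 9.50 ± 0.21 (SD, n = 6) in CC004/TauUnc and 8.19 ± 0.38 (SD, n = 6) in CC001/Unc, a 2.47-fold range, and several strains lay near each end: the second highest mean was 9.41 and the second lowest 8.37. *Aars* (F = 6.92) was highest in CC040/TauUnc (7.30 ± 0.13, SD, n = 6) and lowest in CC030/GeniUnc (6.56 ± 0.17, SD, n = 6). The values of *Hars*, *Iars* and *Kars* also rested on 1 strain each: F was 1.87 for *Hars* without CC008/GeniUnc (2.92 with all strains), and it was 1.98 for *Iars* (3.88 with all strains) and 2.27 for *Kars* (3.68 with all strains) without CC024/GeniUnc. In CC024/GeniUnc (n = 4) *Iars* was split: 7.19 in an HP mouse and 7.10 in an HS mouse, against 7.81 and 7.74 in the others. The HS mouse with 7.10 had a low *Xist* value (9.42).

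Among the other genes *Psph* had the largest F (6.32, adjusted p = 2.43e-10), with a mean of 5.06 ± 0.36 (SD, n = 6) in CC037/TauUnc and 4.04 ± 0.28 (SD, n = 5) in CC008/GeniUnc. *Trib3* (F = 3.55) was highest in CC030/GeniUnc (5.63 ± 0.71, SD, n = 6), where 1 HP mouse reached 7.03, and lowest in CC037/TauUnc (4.14 ± 0.33, SD, n = 6), a 2.81-fold range. *Ddit4* had a wider range, 2.97-fold, but also the widest spread within strains (pooled SD 0.75, F = 2.13). *Sesn2* passed (adjusted p = 0.0302) and did not without CC008/GeniUnc (adjusted p = 0.219), CC001/Unc (0.0560) or CC030/GeniUnc (0.0534), nor without the 3 mice of lowest *Xist* after the one named above (adjusted p = 0.106). *Cars* did not pass without CC012/GeniUnc (adjusted p = 0.0575), nor did *Farsa* without CC002/Unc or CC063/Unc (adjusted p = 0.0958 and 0.0647), nor did *Ddit3* without CC032/GeniUnc (adjusted p = 0.0836).

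Some strains stood low or high over many genes of the set. CC008/GeniUnc had the lowest strain mean for 5 of 19 synthetases (*Gars*, *Hars*, *Mars*, *Rars* and *Vars*) and for 6 of the 12 other genes (*Atf5*, *Sesn2*, *Ddit4*, *Eif4ebp1*, *Psph* and *Shmt2*). The median deviation of this strain from the mean of strains was −0.09 over the synthetases and −0.40 over the other genes, against −0.03 over all tested genes. For *Sesn2* and *Atf5* the low mean came from 2 of its 5 mice, both HP: *Sesn2* was 3.93 and 3.49 in them, against 5.00 to 5.32 in the other 3, and *Atf5* 7.90 and 7.48, against 8.69 to 8.76. The mouse with 3.93 and 7.90 is also among the 3 mice of low *Xist* left out above (9.40). These 2 HP mice also had the 2 lowest values of the strain for *Gars*, *Hars*, *Mars*, *Rars*, *Vars*, *Ddit4* and *Shmt2*. That was not so for *Eif4ebp1* and *Psph*. The low profile of CC008/GeniUnc thus rested in part on these 2 mice, and strain means without them are not given here. CC012/GeniUnc had the lowest median over synthetases, −0.12, with 16 of 19 below the mean of strains, and 0.02 over the other genes. At the high end CC004/TauUnc lay above the mean of strains in 18 of 19 synthetases and was highest in 5 (*Eprs*, *Lars*, *Nars*, *Tars* and *Yars*), and CC006/TauUnc was highest in 4 (*Cars*, *Farsb*, *Gars* and *Hars*). CC040/TauUnc had the highest median deviation, 0.12, over the synthetases. These strain profiles are a description of strain means with no test. How often each strain was highest or lowest over all tested genes is not given here.

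**Figure D3:**
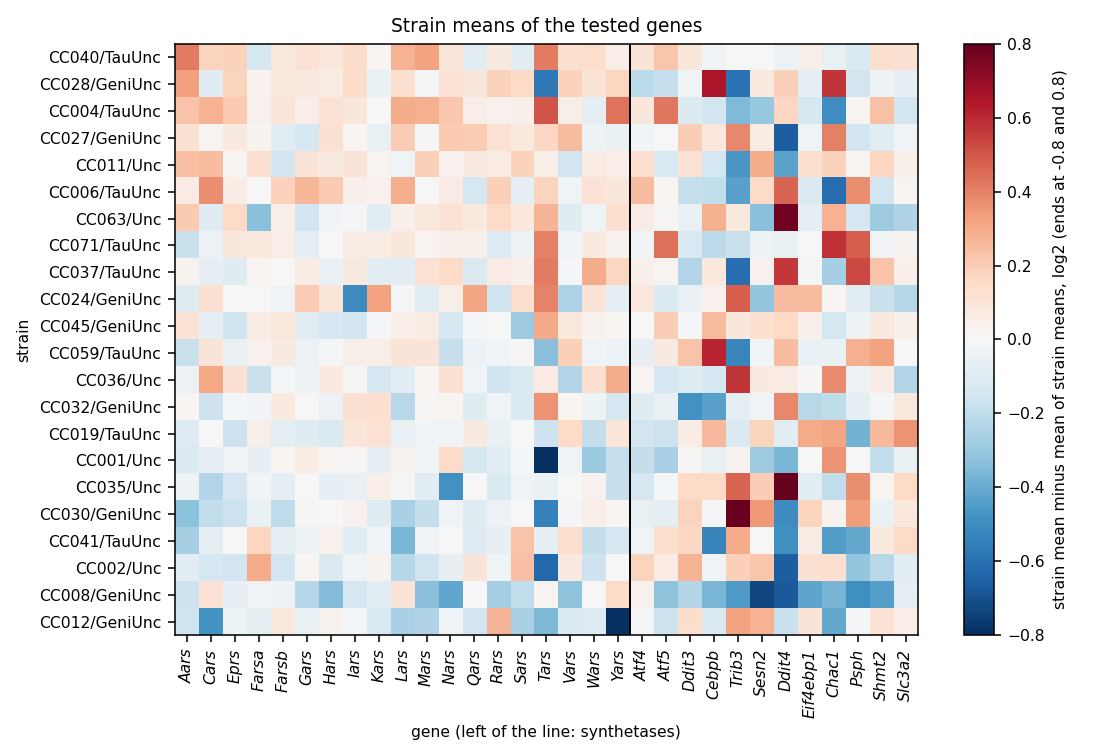
Strain means of the 31 tested genes, each less the mean of the 22 strain means (log2, colour ends at −0.8 and 0.8), synthetases left of the line. Strains are ordered by their median over synthetases, from CC040/TauUnc (0.12) at the top to CC012/GeniUnc (−0.12) at the bottom, and the row of CC008/GeniUnc is blue in most of the other genes.

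The third comparison asked whether the diet difference depended on the strain. None of the 31 genes passed the F test of the 21 interaction terms, which called 0.0183% of all genes (2 of 10943). At an unadjusted p under 0.05, 1 of the 31 genes was found, *Ddit3* (p = 0.0121, adjusted p = 0.788), against 524 of all genes. With 2 or 3 mice in each strain and diet group, the size of interaction that could be detected was not measured. With array weights *Atf5* was called (F = 2.68, adjusted p = 0.0463).

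The fourth question was whether the genes varied together among mice. The mean of each strain and diet group was taken out, so that neither diet nor strain enters, and Pearson's r was computed over all mice for all 465 pairs of the 31 genes. The median r was 0.23 over 171 pairs of synthetases, 0.08 over 66 pairs of the other genes and 0.00 over the 228 pairs between both kinds, beside 0.02 over all pairs of tested genes. Pairs of synthetases were positive in 149 of 171 cases. By permutation within strain and diet groups (100000 permutations, 2-sided, Benjamini-Hochberg over 465 pairs) 63 of them passed as positive and 1 as negative. Between synthetases and other genes 15 passed as positive and 21 as negative. Permutations were not run over all pairs of genes, so the background is given at a fixed r. An r above 0.3 was found for 58 of 171 pairs of synthetases (33.9%) and 9 of 66 pairs of other genes (13.6%). It was found for 14 of 228 pairs between both kinds (6.14%), against 8.14% of all pairs of tested genes. An r below −0.3 was found for 2 pairs of synthetases (1.17%) and 3 pairs of other genes (4.55%). It was found for 15 pairs between both kinds (6.58%), against 5.9% of all pairs. Pairs between both kinds thus lay near the background in both directions.

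*Nars* (asparagine) was the synthetase most like the others, with a median r of 0.44 with the other 18 and positive values with 17 of them. The pair with the highest r was *Nars* and *Tars* (r = 0.68, Spearman's rho = 0.70, adjusted p = 0.000273 by permutation for r). Among pairs of synthetases *Cars* and *Tars* (r = 0.64, rho = 0.62), *Nars* and *Rars* (r = 0.58, rho = 0.59) and *Cars* and *Nars* (r = 0.57, rho = 0.56) followed, each at the same adjusted p, which rests on the smallest p that the permutations can give (1e-05). These pairs held within each diet, with r of 0.69, 0.63, 0.58 and 0.54 in HP mice and 0.69, 0.64, 0.59 and 0.60 in HS mice. Without the 2 mice farthest from the median of the first gene, r was 0.67, 0.62, 0.58 and 0.58. In raw values, with strain and diet left in, r was 0.39, 0.51, 0.45 and 0.44.

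*Vars* behaved otherwise, with a median r of −0.11 with the other synthetases and positive values with 5 of 18. It went instead with *Shmt2*, the mitochondrial serine hydroxymethyltransferase (r = 0.59, rho = 0.42, adjusted p = 0.000996), with 0.55 in HP mice and 0.64 in HS mice. In 3 mice both genes were low: *Vars* was 4.22, 4.57 and 4.18 and *Shmt2* 8.48, 8.54 and 8.70 in an HP mouse of CC008/GeniUnc, an HP mouse of CC006/TauUnc and an HS mouse of CC024/GeniUnc. These mice also had the lowest *Xist* values (9.40, 9.16 and 9.42) after the mouse named above. Without them r was 0.41 (adjusted p = 0.0171), and their part in the pair beyond that was not tested. The mice kept for that r include others with low values of *Vars* and *Shmt2*. An HP mouse of CC002/Unc had 4.67 and 8.99 (*Xist* 9.55), and an HP mouse of CC024/GeniUnc had 4.90 and 8.85. *Qars* (glutamine) and *Shmt2* had the lowest r (−0.45, rho = −0.37, adjusted p = 0.00391), followed by *Lars* and *Shmt2* (−0.45, rho = −0.46, adjusted p = 0.000861) and *Qars* and *Vars* (−0.43, rho = −0.35, adjusted p = 0.00455). Without the 2 farthest mice these pairs had an r of −0.42, −0.44 and −0.39, and without the 3 mice of low *Xist* of −0.36, −0.40 and −0.34. The pair of *Lars* and *Shmt2* did not pass in raw values (r = −0.18, adjusted p = 0.119). *Atf4* had positive r with 18 of 19 synthetases, with a median of 0.18, while *Trib3* was positive with 5 of 19 (median −0.13) and *Shmt2* with 4 (median −0.19).

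**Figure D4:**
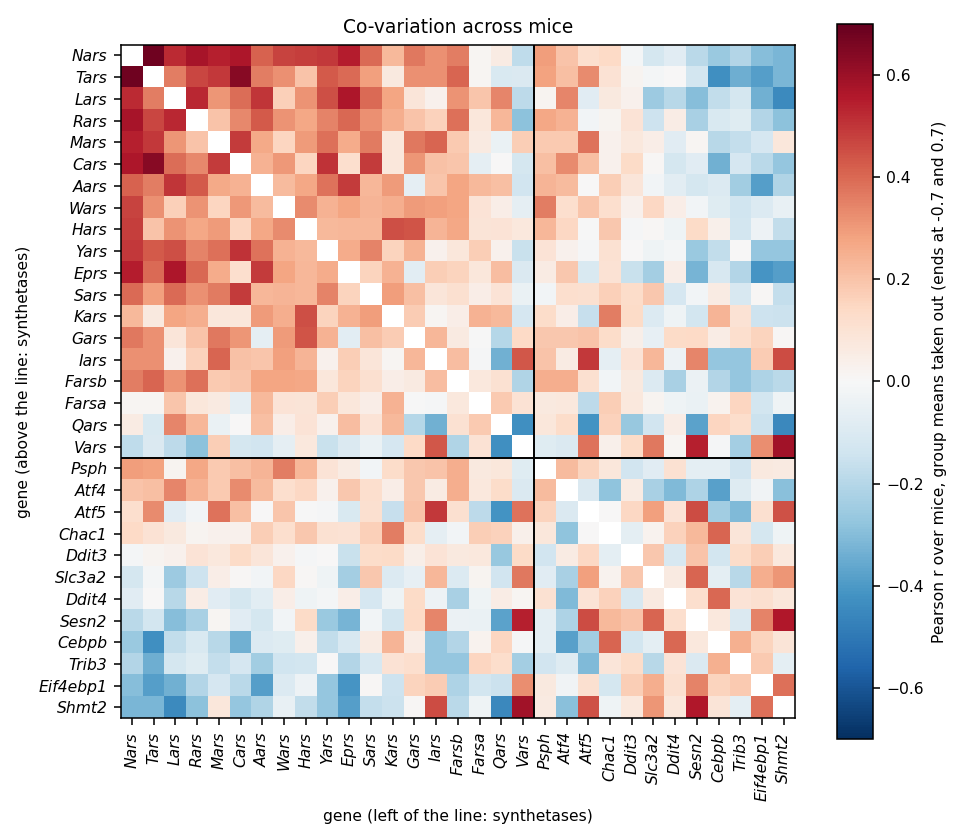
Pearson r over all mice with strain and diet group means taken out, for the 31 tested genes (colour ends at −0.7 and 0.7). Synthetases fill the upper left block, ordered by their median r with each other from *Nars* (0.44) to *Vars* (−0.11), and most of that block is red.

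Part of this co-variation ran with the clock score. Within strain and diet groups the score was correlated with *Tars* at r = −0.78 (rho = −0.78, adjusted p = 6.2e-05 by permutation over 31 relations), with *Cars* at −0.55 (rho = −0.54), with *Atf5* at −0.53 (rho = −0.48) and with *Nars* at −0.44 (rho = −0.49), all 3 at the same adjusted p. *Trib3* (r = 0.52, rho = 0.49, adjusted p = 8.9e-05) and *Cebpb* (r = 0.47, rho = 0.48, adjusted p = 6.2e-05) ran the other way. Without the 2 mice with the most extreme scores, r was −0.78 for *Tars*, −0.57 for *Cars*, −0.49 for *Atf5*, −0.46 for *Nars*, 0.47 for *Trib3* and 0.44 for *Cebpb*. In all 13 of 31 genes passed, 10 with a negative r. No share of all tested genes is given beside this count, so it cannot be read as particular to this set. Beside those named these were *Farsb* (−0.44), *Mars* (−0.34), *Rars* (−0.34), *Iars* (−0.33), *Psph* (−0.28), *Wars* (−0.28) and, with a positive r, *Eif4ebp1* (0.35). *Kars* (r = 0.00), *Vars* (0.08), *Farsa* (0.09) and *Atf4* (−0.18, adjusted p = 0.118) were among the 18 that did not pass. With the score taken out as well, the median r over pairs of synthetases was 0.20 in place of 0.23. For *Cars* and *Tars* r was then 0.40 in place of 0.64, and for *Nars* and *Tars* 0.60 in place of 0.68.

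**Figure D5:**
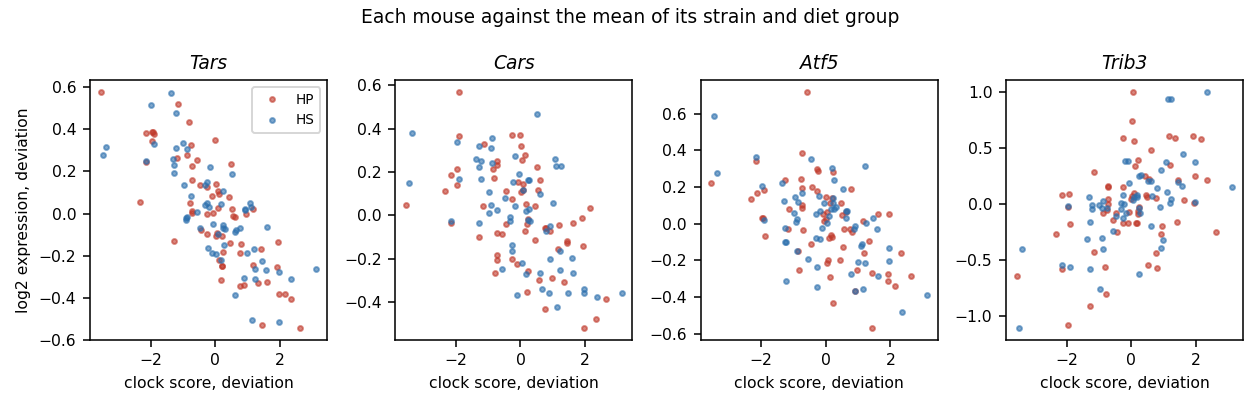
Deviation of each mouse from the mean of its strain and diet group, clock score on the horizontal axis and log2 expression on the vertical axis, HP mice in red and HS mice in blue. *Tars* decreases along the score (r = −0.78), *Cars* and *Atf5* less steeply (−0.55 and −0.53), and *Trib3* increases (0.52), with both diets in the same cloud.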

How the data were processed

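Liver RNA of 63 HP and 60 HS mice was measured on whole-transcript arrays (Affymetrix Mouse Gene 2.1 ST), and the authors deposited log2 values of 41345 transcript clusters made by RMA (background correction, sketch-quantile normalization, median polish). Expression Console of Affymetrix is named as the tool in the submitters' processing notes, with no version given in the sources used here. RMA sets all arrays to 1 distribution, so a shift shared by most genes cannot be seen. Groups came from the sample labels, and each replicate was a separate mouse. Array plates, scan batches and the hour of collection were not given in the labels used here, so batches could not be tested. The number of arrays limits the precision.

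Symbols came from the platform annotation, which gave 1 symbol for 23521 clusters, several for 1820 and none for 16004. Clusters with several symbols were not used, apart from that of *Aars*. The study's filter on expression and its choice of the brightest cluster per gene left 10943 genes. Diet, strain and their interaction were each tested in limma 3.58.1 (lmFit and eBayes, R 4.3.3), with Benjamini-Hochberg adjustment over all of them. Correlations and permutations were computed with numpy 2.4.6, pandas 2.3.3 and scipy 1.17.1 in Python 3.11.15, and figures with matplotlib 3.10.9. Both procedures were tested on simulated data.

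The genes of the set, the other lists and the tests were chosen with earlier results of these data known. Every gene of the set is named. Of each other list up to 4 genes called by diet were named, and *Fgf21*, *Alb*, *Aimp1*, *Eef1e1* and those genes of these lists that are named as called only with strain as a block were named after their values were seen. Pairs named are the 5 with the highest and the 3 with the lowest r, and strains those with the highest and lowest mean, the remarks on strains across many genes being made after the values were seen. The promoter printed is that of a gene called by diet that holds the motif, and the sequences of 1 other gene are not reported here. Alternatives changed the fit, the normalization, the filter, the cluster and the mice or strains used. Lists of cholangiocyte (0 of 2 called) and lymphocyte and neutrophil markers (0 of 3) showed no call.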

Additional observations from a re-analysis of the deposited data

Results flagged for a closer look

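In the strains with the highest and lowest mean of each tested gene, 62 groups of 4 to 6 mice were examined for a single mouse far from the others by Dixon's test, and 5 groups held such a mouse. Chance gives about 1 in 20 groups taken without regard to their values. These groups were taken for their extreme means, and in 4 of the 5 the mouse lay on the side that made its strain extreme, so that rate is no measure here. For *Trib3* in CC030/GeniUnc, an HP mouse had a log2 value of 7.03, against 5.10 to 5.59 in the other 5 mice. For *Atf4* in CC006/TauUnc, an HP mouse had 7.88, against 7.27 to 7.43. For *Vars* in CC027/GeniUnc, an HP mouse had 6.04, against 5.38 to 5.48. For *Tars* in CC004/TauUnc, an HS mouse had 9.91, against 9.32 to 9.54. For *Eprs* in CC030/GeniUnc, its lowest strain, an HP mouse had 8.48, against 8.26 to 8.32. None of these 5 mice is among the 5 that stood apart by strain, *Xist* or pancreatic transcripts. The *Atf4* mouse, however, had the lowest *Xist* value (9.16) after the CC071/TauUnc mouse of that group.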

How the results depend on the processing

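The diet count of 7 genes became 12 with strain as a block and 4 with the clock score as covariate, and lay within 1.5 times of 7 under the other alternatives that kept all strains. Leaving out 1 strain at a time gave 6 to 8 genes, and 8 to 13 with strain as a block. Differences near 0 changed sign. That of *Vars* was 0.0048 after repeated quantile normalization, 0.0084 with array weights and 5.2e-05 with strain as a block and centred arrays, and −0.029 to 0.0076 when strains were left out. That of *Yars* was 0.017 with the clock score, without and with strain as a block (0.017 and 0.017), and 0.0025 with the block and centred arrays. That of *Ddit3* was −0.026 with the clock score and −0.0083 to 0.058 when strains were left out. The strain count was 29 to 31 without single strains, and the interaction count was 0 there and 1 with array weights.

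The median r over synthetases was 0.163 in HP mice and 0.290 in HS mice, a difference that was not tested, 0.345 with centred arrays (all genes 0.053), 0.197 with the clock score taken out and 0.213 to 0.244 without single strains. Over the other genes it was 0.033 in HP mice and 0.055 to 0.084 without single strains. Settings that combine strain as a block with another choice, and those without the mice that stand apart or the 3 mice of lowest *Xist* after them, were chosen after seeing the data. The labels give no replicate numbers that pair single mice, and strain, which HP and HS mice share, served as the block. Genes near the filter limit, and the 6 below it, are measured close to the background of the array, and no scanner values were used here to check it.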
